A study of Mus musculus with 20 samples.

Results

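The genes described here are 10 mRNAs that tissues induce within minutes to hours of handling, injury or heat. They are the immediate early genes Fos, Fosb, Jun, Junb, Ier2, Egr1 and Atf3, and the heat shock genes Hspa1a, Hspa1b and Hspb1. They were picked by gene symbol, and each symbol matched 1 row of the deposited count table, so the set holds 10 of 34255 genes. The question was how their levels compare across the 5 groups of kidney samples and how far they vary among the 4 control libraries of each group.

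All mice were healthy, male, wild-type C57BL6/OlaHsd animals that were anesthetized with isoflurane before death, and their kidneys were snap frozen. Laser microdissection of stained cryosections gave 4 compartments of the cortex, namely arterioles, glomeruli, peritubular capillaries (PTC) and post-capillary venules (PCV, here venules). Whole kidney was the reference, and each of the 5 groups held 4 libraries. No group received a treatment, and the column headers of the table read control and 4 h for all 20 libraries, a time that no source used here explains. Microdissected RNA went through a low-input version of the library protocol with more PCR cycles than whole kidney RNA, so a difference between these preparations and a difference between compartment and whole kidney cannot be told apart. Peritubular capillaries were cut from slides stained with a FITC-labelled lectin and the other 3 compartments from slides stained with hematoxylin, so stain and compartment cannot be told apart for peritubular capillaries. The area of tissue cut was smaller for arterioles and for peritubular capillaries than for the other compartments, and this too cannot be told apart from the compartment. Libraries are named by the number in their table column (93, 96, 98 or 100), and values for 4 libraries follow that order. Samples of a group are labelled as biological replicates, but none is tied to a mouse, and a p-value therefore speaks only of the spread between samples, which may be technical. By the study's methods, the same slide of a mouse gave arterioles, glomeruli and venules, and a further slide gave peritubular capillaries. Libraries of different compartments can thus share a mouse, and the main tests did not pair them.

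Immediate early genes are transcribed within minutes of a stimulus without any need for new protein synthesis, because the factors that switch them on are already present and only need phosphorylation. Fos and Jun family proteins pair into the transcription factor AP-1, Egr1 is a zinc finger factor, and Atf3 is a stress-induced partner of the same leucine zipper class. Heat shock genes are switched on by heat shock factor 1, which is held inactive by chaperones until misfolded protein draws them away. In kidney these transcripts are known to rise after ischemia and during slow tissue dissociation.

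Sequences upstream of 5 members are shown for the elements through which cAMP, heat shock and AP-1 signals are known to act. RefSeq promoter entries (build GRCm38.p6) were found for 8 of the 10 members, and none was used for Egr1 and Ier2. Each stretch below holds the 150 bases before the RefSeq start site, 5′ to 3′ on the gene's strand. Capitals mark TGACG in Fos, the core of the cAMP response element, GAANNTTC in Hspa1a, Hspa1b, Hspb1 and Jun, the inverted repeat bound by heat shock factor, and TGACATCA in Jun, the AP-1-like site of its own promoter.
Fos (chr12:85473740-85473889, plus strand): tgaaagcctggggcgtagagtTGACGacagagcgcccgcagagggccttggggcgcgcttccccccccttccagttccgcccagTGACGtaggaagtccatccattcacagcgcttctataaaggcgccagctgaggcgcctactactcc
Jun (chr4:95052223-95052372, minus strand): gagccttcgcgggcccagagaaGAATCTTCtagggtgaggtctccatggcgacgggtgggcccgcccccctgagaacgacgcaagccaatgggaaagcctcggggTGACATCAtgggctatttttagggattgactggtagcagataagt
Hspa1a (chr17:34972157-34972306, minus strand): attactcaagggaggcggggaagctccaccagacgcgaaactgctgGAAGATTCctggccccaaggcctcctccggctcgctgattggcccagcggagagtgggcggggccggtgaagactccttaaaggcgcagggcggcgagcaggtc
Hspa1b (chr17:34959239-34959388, minus strand): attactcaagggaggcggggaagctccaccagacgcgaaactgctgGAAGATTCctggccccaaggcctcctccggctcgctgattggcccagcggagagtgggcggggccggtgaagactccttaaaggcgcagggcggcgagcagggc
Hspb1 (chr5:135887769-135887918, plus strand): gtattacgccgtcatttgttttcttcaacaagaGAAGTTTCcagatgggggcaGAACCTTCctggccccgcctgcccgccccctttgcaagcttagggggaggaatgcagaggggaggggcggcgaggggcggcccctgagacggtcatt
Both strands of the 250 bases before each start were searched, and none of these 3 motifs contains another. GAANNTTC stood at bases 104 to 97 before the start in both Hspa1a and Hspa1b, and at bases 117 to 110 and 97 to 90 before the start of Hspb1. Fos carried TGACG at bases 129 to 125 and 66 to 62, and Jun carried TGACATCA at bases 45 to 38 and GAANNTTC at bases 128 to 121. TGACG also stood in Fosb (bases 60 to 56) and Junb (bases 106 to 102), and its reverse complement in Atf3 (bases 7 to 3) and in Hspb1 (bases 141 to 137, not in capitals above), so it was not particular to Fos. Of all 32851 promoter entries, 6.69% held GAANNTTC, 2.93% held TGACATCA and 17.8% held TGACG in a window of the same length. The windows of Hspa1a and Hspa1b differed at 3 of 250 bases.

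Library totals lay between 4639090 and 12283098 counts, and the limit that 3 counts set on a value of 0 lay between 0.206 and 0.640 CPM (counts divided by the TMM-scaled library total and multiplied by 1000000). Such limits cover counting error only. Of the 160 values of the 10 genes in microdissected libraries, 45 (28.1%) were 0 or 1 count and 101 (63.1%) exceeded 10 counts, close to the 24.2% and 63.2% of all 13813 genes tested. In whole kidney 1 of 40 values (2.5%) was 0 or 1 count, against 0.509% of all genes tested. That value was Fosb in library 93. Fosb had too few counts to be tested, so it is among the 10 genes but not in this background. All its values in microdissected libraries were 0 or 1 count, which raises the share of the 10 genes there. A level in these bulk samples does not separate fewer cells of a type from less RNA per cell. Marker lists went with the arteriole and glomerular labels. The summed level of 5 smooth muscle genes was 17625 to 42659 CPM in arterioles and 139 to 1230 CPM in the other compartments. Similarly, 5 podocyte genes summed to 6479 to 7457 CPM in glomeruli and 168 to 1756 CPM elsewhere among the compartments. Peritubular capillary libraries were mixed: 6 endothelial genes summed to 301 to 1370 CPM, against 302 to 383 CPM in whole kidney. The 5 proximal tubule genes summed to 59244 to 110728 CPM there, against 31874 to 33516 CPM in whole kidney. In venules the endothelial genes summed to 525 to 759 CPM and the proximal tubule genes to 20554 to 25844 CPM.

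The group means of these genes were compared first, and single libraries set some of them. Arterioles had the highest mean of the 5 groups for 7 of the 10 genes (Jun, Junb, Ier2, Egr1, Atf3, Hspa1b and Hspb1). Library 98 held 99.7% of the arteriole sum of Atf3, and library 96 held 80.1% for Hspa1b and 77.7% for Hspb1. By median, arteriole Atf3 stood at 0.107 CPM, below glomeruli (3.91 CPM) and whole kidney (0.780 CPM). How many of all genes had their highest mean in arterioles was not counted. Fos had its highest mean in glomeruli, Hspa1a in peritubular capillaries and Fosb in whole kidney. Peritubular capillaries had the lowest mean for Fos, Jun, Ier2, Egr1 and Hspb1. A difference is called below at an adjusted p (FDR, edgeR quasi-likelihood test, Benjamini-Hochberg over all genes tested) under 0.05 and a log2 fold change over 1 in size. Fosb had too few counts to be tested, and the other 9 members were tested in every comparison.

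**Figure D1:**
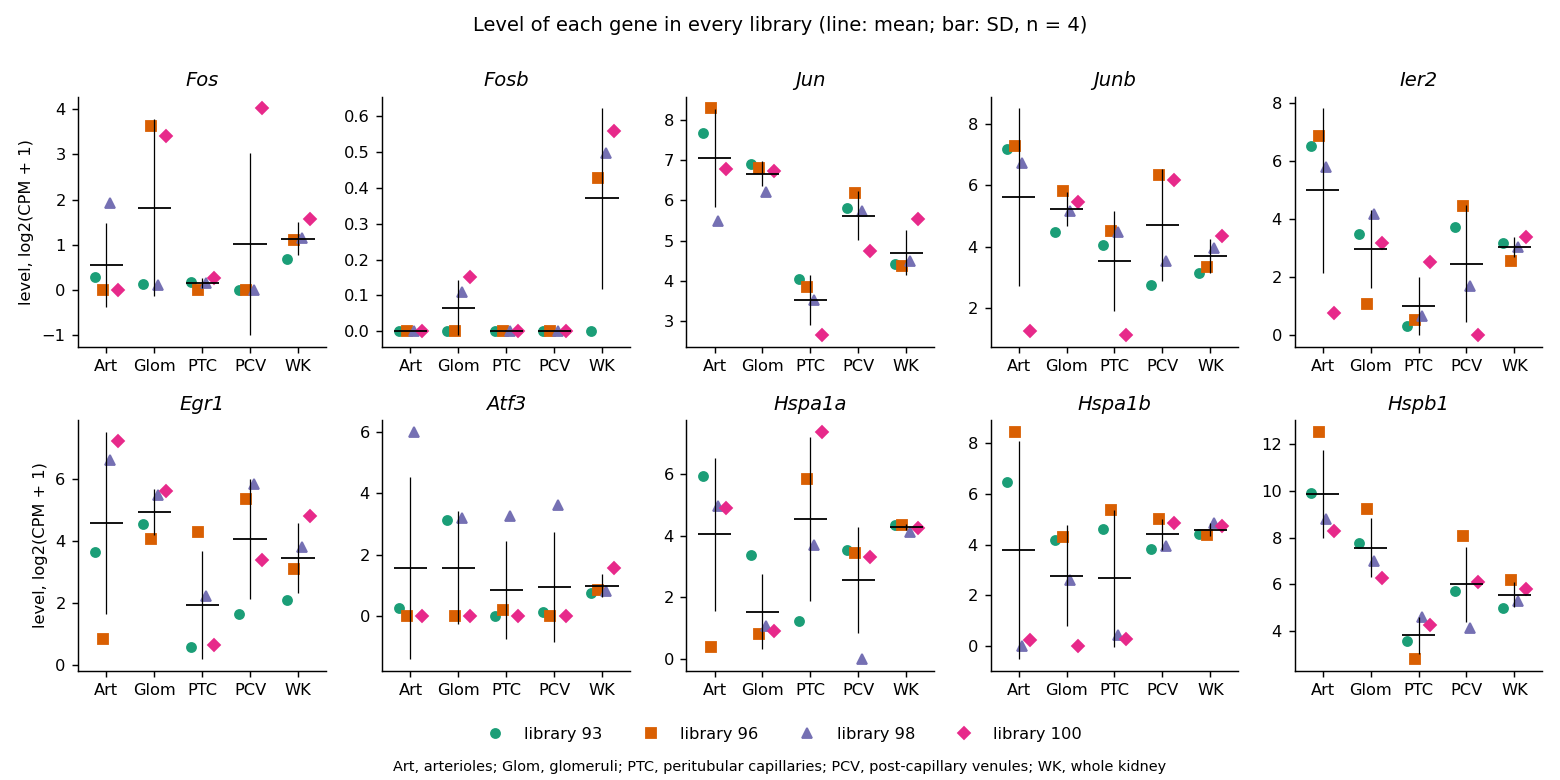
Level of each of the 10 genes as log2(CPM + 1) in every library of arterioles (Art), glomeruli (Glom), peritubular capillaries (PTC), post-capillary venules (PCV) and whole kidney (WK), with the scale set per gene. Points are libraries, horizontal lines are means and vertical bars are SD (n = 4). Jun and Hspb1 stood well above 0 in all 20 libraries. Fos, Atf3, Hspa1b, Ier2 and Hspa1a were at 0 in at least 1 microdissected library and in no whole kidney library. Whole kidney Fos and Atf3 were low too, with lowest values of 0.608 and 0.709 CPM.

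Fos (ENSMUSG00000021250, chr12:85473890-85477273, plus strand) encodes the AP-1 subunit that is classically read as a sign of recent stimulation. It was nearly silent in most microdissected libraries and present in a few. Arteriole libraries held 0.213, 0, 2.81 and 0 CPM, and glomerular libraries 0.1002, 11.3, 0.0779 and 9.60 CPM. Peritubular capillary libraries held 0.124, 0, 0.117 and 0.196 CPM, and venule libraries 0, 0, 0 and 15.3 CPM. Whole kidney libraries held 0.608, 1.15, 1.23 and 1.98 CPM. Glomerular 96 and 100, venule 100 and arteriole 98, with 102, 87, 114 and 25 counts, were thus the only microdissected libraries with more than 1 count, and the other 12 had 0 or 1. All 4 peritubular capillary libraries lay below all whole kidney libraries, which themselves held 6 to 21 counts. Fos was called in no comparison and no setting: in glomeruli against the other 3 compartments the log2 difference was 2.88 ± 1.64 (SE, FDR 0.442), and in peritubular capillaries against the other 3 it was -4.35 ± 2.42 (FDR 0.293).

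Fosb (ENSMUSG00000003545, chr7:19302696-19310051, minus strand), the close relative of Fos, was at 0 counts in 14 of 16 microdissected libraries and at 1 count in glomerular 98 and 100. Whole kidney libraries held 0, 3, 6 and 5 counts, or 0, 0.346, 0.411 and 0.472 CPM. At this depth a difference between groups was not detectable.

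Jun (ENSMUSG00000052684, chr4:95049034-95052222, minus strand) encodes the main partner of Fos in AP-1, and it had the most called differences among the immediate early genes. Arteriole libraries held 202, 313, 43.9 and 109 CPM, and glomerular libraries 119, 110.4, 72.6 and 106 CPM. Peritubular capillary libraries held 15.5, 13.4, 10.6 and 5.28 CPM. Post-capillary venule libraries held 55.2, 71.2, 52.2 and 26.0 CPM, and whole kidney libraries 20.5, 19.6, 21.7 and 45.2 CPM. Glomeruli lay above venules, whole kidney and peritubular capillaries without overlap, and peritubular capillaries lay below every other library. Arterioles overlapped both glomeruli and venules, since arteriole 98 was lower than all glomerular libraries and than 3 of the 4 venule libraries.

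Against whole kidney, arteriole Jun was 2.64 ± 0.80 higher on the log2 scale (FDR 0.0294), a mean of 167 ± 117 against 26.8 ± 12.4 CPM (SD, n = 4). That call ended without arteriole 93 or 96 or any 1 of the 4 whole kidney libraries (FDR 0.0517 to 0.0934), and also without a filter on low counts (FDR 0.0914). Against the other 3 compartments arteriole Jun was 2.10 ± 0.64 higher (FDR 0.0263), which ended without arteriole 93 (FDR 0.0639), arteriole 96 (FDR 0.151) or glomerular 98 (FDR 0.0599). In peritubular capillaries Jun was lower than in the other 3 by 3.09 on the log2 scale (SE 0.85, FDR 0.0187), a call that ended without capillary 96 (FDR 0.0508), 98 (FDR 0.0595) or 100 (FDR 0.0602). Pairwise, Jun was higher than in peritubular capillaries in arterioles by 3.89 ± 0.95 (FDR 0.00559), which held in every setting tried, with an FDR of at most 0.0210. In glomeruli it was higher than in peritubular capillaries by 3.18 ± 0.92 (FDR 0.0374), and that call ended without any 1 of the 8 libraries compared (FDR 0.0593 to 0.0999). Arterioles and glomeruli were not told apart (log2 difference 0.71 ± 0.85, FDR 0.733), nor were glomeruli and venules (0.99 ± 0.86, FDR 0.889). Glomeruli against whole kidney gave 1.93 ± 0.78 (FDR 0.193). The antisense gene Junos overlaps Jun and held 171 counts over all 20 libraries. Because the strand setting of the counting is not given, reads of both cannot be told apart.

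Junb (ENSMUSG00000052837, chr8:84974484-84978718, minus strand), an AP-1 subunit that often restrains Jun, had its highest values in arterioles but with 1 library far below the rest. Arteriole libraries held 143, 154, 104 and 1.43 CPM. Glomerular libraries held 21.3, 55.2, 34.99 and 42.5 CPM, and peritubular capillary libraries 15.7, 21.8, 21.5 and 1.17 CPM. Venule libraries fell into 5.82 and 10.6 CPM for 93 and 98 and 79.4 and 70.3 CPM for 96 and 100, and whole kidney libraries held 7.90, 9.10, 14.4 and 19.3 CPM. Glomeruli lay above whole kidney without overlap, and arterioles overlapped every group through library 100. The largest difference from whole kidney was in arterioles (2.99 ± 1.19, FDR 0.0825), and edgeR called Junb in no comparison. The difference from whole kidney was called by DESeq2 (FDR 0.00522), in the version 4 form (FDR 0.0102) and without arteriole 100 (FDR 0.0406), and DESeq2 called arterioles higher than peritubular capillaries (FDR 0.0148) and than the other 3 (FDR 0.0438). Prdx2, on the opposite strand, overlaps Junb and was far more abundant (36185 counts over all libraries), so antisense reads are a limit for Junb as well.

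Ier2 (ENSMUSG00000053560, chr8:84661331-84662852, minus strand) encodes a small nuclear protein induced by serum. Arteriole libraries held 91.0, 115, 55.0 and 0.714 CPM, and glomerular libraries 10.3, 1.10, 17.1 and 8.05 CPM. Peritubular capillary libraries held 0.249, 0.442, 0.583 and 4.69 CPM, venule libraries 12.2, 20.8, 2.22 and 0 CPM, and whole kidney libraries 8.10, 4.95, 7.26 and 9.35 CPM. Arterioles 93, 96 and 98 exceeded every library of the other groups, while arteriole 100 had 4 counts. Arterioles were 3.73 ± 1.24 higher than the other 3 compartments on the log2 scale (FDR 0.0452), with a mean of 65.5 against 6.48 CPM. Leaving out 1 library ended it for 13 of the 16 libraries (FDR 0.0511 to 0.134), the exceptions being arteriole 100, capillary 100 and venule 96. Against whole kidney the arteriole difference was 3.14 ± 1.62 (FDR 0.170, but 0.0244 by DESeq2 and 0.00956 in the version 4 form), and all 4 peritubular capillary libraries lay below whole kidney (-2.32 ± 1.58, FDR 0.621).

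Egr1 (ENSMUSG00000038418), a zinc finger factor induced by growth factors and stretch, varied widely within arterioles. There the libraries held 11.7, 0.805, 97.2 and 151 CPM, so that the arteriole library with the most Jun and Hspb1 had the least Egr1. Glomerular libraries held 22.5, 16.02, 44.4 and 48.7 CPM. Peritubular capillary libraries held 0.497, 18.6, 3.73 and 0.587 CPM, venule libraries 2.13, 40.0, 57.2 and 9.64 CPM, and whole kidney libraries 3.34, 7.60, 13.0 and 27.4 CPM. Every group overlapped whole kidney. Egr1 was called by edgeR in no comparison, and the smallest FDR was 0.147, for arterioles against peritubular capillaries (3.47 ± 1.61). That pair was called by DESeq2 (FDR 0.0175) and by the version 4 form of edgeR (FDR 0.0325), and DESeq2 also called peritubular capillaries lower than the other 3 (FDR 0.0385).

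Atf3 (ENSMUSG00000026628, chr1:191170296-191218039, minus strand), which represses and activates genes of the stress response, was either absent or plain in a microdissected library. Arteriole libraries held 1, 0, 560 and 0 counts (62.9 CPM in library 98), and glomerular libraries 78, 0, 104 and 0 counts. Peritubular capillary libraries held 0, 1, 73 and 0 counts, and venule libraries 1, 0, 61 and 0. Whole kidney libraries held 7, 7, 11 and 21 counts, a narrower range of 0.709 to 1.98 CPM. More than 1 count was thus found in 5 of 16 microdissected libraries, namely those numbered 98 in all 4 compartments and glomerular 93. Nothing in the labels says whether libraries with the same number come from the same mouse. Every compartment overlapped whole kidney, and edgeR called Atf3 in no comparison. Library 98 set the direction in arterioles against whole kidney: the log2 difference was 3.88 ± 2.53 (FDR 0.284) with it and -3.73 without it (FDR 0.303). The version 4 form of the edgeR test called this difference (4.19, FDR 0.0282).

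**Figure D2:**
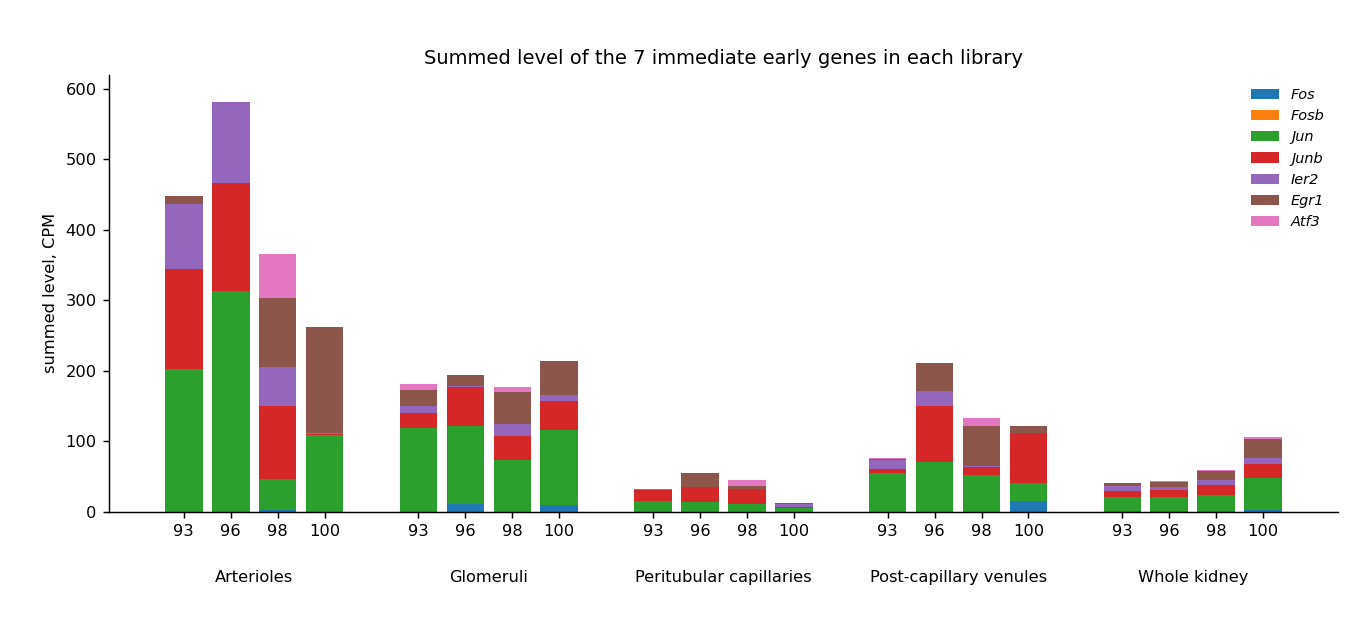
Summed level of the 7 immediate early genes (CPM, stacked by gene) in each of the 20 libraries, which are named by number under each bar and grouped by compartment. Arteriole sums lay at 262 to 582 CPM and peritubular capillary sums at 11.9 to 54.4 CPM, and Jun contributed most in all glomerular and whole kidney libraries, while the leading gene changed among the libraries of the other 3 groups.

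Added up, the 7 immediate early genes came to 414 ± 135 CPM in arterioles, 192 ± 16.8 CPM in glomeruli and 135 ± 56.5 CPM in venules (SD, n = 4). Whole kidney had 62.3 ± 29.98 CPM and peritubular capillaries 35.9 ± 18.4 CPM. The arteriole sums (262 to 582 CPM) lay above all others. Glomerular sums kept to a narrow range of 177 to 215 CPM although single genes such as Fos and Atf3 came and went among these libraries. Jun was the largest single part of the sum in all 4 glomerular and all 4 whole kidney libraries, and Egr1 was the largest in arteriole 100. Sums weight genes by abundance and carry no test here.

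Among the heat shock genes, Hspb1 (ENSMUSG00000004951, chr5:135887919-135889563, plus strand) was the most abundant and showed the strongest differences of the set. It encodes HSP27, a small chaperone that binds actin and is known to be plentiful in contractile cells. Arteriole libraries held 948, 5934, 437 and 314 CPM, and glomerular libraries 216, 591, 125 and 76.7 CPM. Peritubular capillary libraries held 10.9, 5.90, 23.1 and 17.995 CPM, and venule libraries 51.9, 263, 16.3 and 66.4 CPM. Whole kidney libraries held 30.5, 71.4, 37.6 and 53.9 CPM. Arterioles and glomeruli lay above all whole kidney libraries and peritubular capillaries below them, and venules spanned whole kidney on both sides. Number 96 marked the highest library in arterioles, glomeruli, venules and whole kidney and the lowest in peritubular capillaries.

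Arteriole Hspb1 exceeded whole kidney by 5.30 ± 0.83 on the log2 scale (FDR 2.33e-05), with means of 1908 ± 2698 and 48.4 ± 18.2 CPM. Arteriole 96 alone held 77.7% of the arteriole sum, and without it the difference was 3.54 (FDR 0.00179) and still called. Against the other 3 compartments the arteriole difference was 4.74 ± 0.53 (FDR 2.62e-08), or 3.04 without arteriole 96 (FDR 9.87e-05). Peritubular capillaries lay 4.65 lower than the other 3 on the log2 scale (SE 0.78, FDR 7.81e-05), although capillaries 98 and 100 overlapped venule 98. Both calls held in all 22 other settings. Pairwise, arterioles were higher than peritubular capillaries by 7.04 ± 0.92 (FDR 8.82e-07) and than venules by 4.26 ± 0.81 (FDR 0.000850), and glomeruli were higher than peritubular capillaries by 4.13 ± 0.81 (FDR 0.000853). Without arteriole 96 the first of these fell to 5.35 and the second to 2.54 (FDR 1.76e-05 and 0.0437), and both stayed called.

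Arterioles against glomeruli gave 2.91 ± 0.76 (FDR 0.0283), a call that ended without arteriole 96 (1.22, FDR 0.364) or glomerular 93, 98 or 100 (FDR 0.0805, 0.123 and 0.113). Glomeruli against whole kidney (2.38 ± 0.73, FDR 0.0636) and peritubular capillaries against venules (-2.79 ± 0.76, FDR 0.102) missed the threshold. The order of Hspb1 by mean was therefore arterioles, glomeruli, venules, whole kidney and peritubular capillaries, with glomeruli and venules not told apart (1.34 ± 0.72, FDR 0.518). Smooth muscle markers shared the arteriole maximum of Hspb1 and Jun: all 5 listed genes had their highest group mean there. None of the 5 was at 0 in any library. Hspb1 and Jun had higher means in glomeruli than in venules, and of the 5 only Myl9 did so (544 against 272 CPM). Acta2, Myh11, Tagln and Cnn1 had lower means in glomeruli than in venules (Cnn1 2.30 against 40.3 CPM). In arterioles the summed levels of other lists were above whole kidney too: endothelial genes at 1823 to 4393 CPM (302 to 383 CPM in whole kidney), mesangial and pericyte genes at 4255 to 7934 CPM (80.4 to 112 CPM), fibroblast genes at 1538 to 4119 CPM (228 to 237 CPM) and erythrocyte genes at 10528 to 76555 CPM (2001 to 4039 CPM). Within the endothelial list, Emcn and Kdr had lower means in arterioles (16.7 and 58.5 CPM) than in whole kidney (71.2 and 136 CPM). Pecam1, Cdh5, Egfl7 and Tie1 had higher means in arterioles. Arteriole 96, with the most Hspb1, had the highest endothelial, mesangial and pericyte, fibroblast, erythrocyte and smooth muscle sums of the 4 arterioles. It was also highest for podocyte genes (1756 CPM), loop, distal tubule and collecting duct genes (604 CPM) and mitochondrially encoded genes (127016 CPM). Proximal tubule and leukocyte sums were highest in arteriole 100 (14401 and 584 CPM). The TMM factor of arteriole 96 (0.545) was the lowest of all 20 libraries. Of the 5 proximal tubule genes, 4 had their highest group mean in peritubular capillaries, where Hspb1 and Jun were lowest, and Slc5a2 in venules. The part of these cell types in the differences was not tested.

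Hspa1a (ENSMUSG00000091971, chr17:34969190-34972156, minus strand) and Hspa1b (ENSMUSG00000090877, chr17:34956436-34959238, minus strand) both encode the inducible HSP70 and lie next to each other in the genome. Hspa1a stood at 60.5, 0.322, 30.01 and 28.9 CPM in arterioles and at 9.32, 0.773, 1.09 and 0.882 CPM in glomeruli. Peritubular capillaries held 1.37, 56.9, 11.9 and 165 CPM and venules 10.53, 9.97, 0 and 8.97 CPM, while whole kidney was tight at 19.5, 19.6, 16.6 and 18.1 CPM. Glomeruli and venules lay below whole kidney without overlap, and arterioles and peritubular capillaries lay on both sides of it. Hspa1b stood at 87.6, 353, 0 and 0.178 CPM in arterioles and at 17.2, 18.9, 5.07 and 0 CPM in glomeruli. Peritubular capillaries held 23.9, 40.6, 0.350 and 0.196 CPM, venules 13.3, 30.9, 14.3 and 28.1 CPM, and whole kidney 20.3, 19.7, 28.0 and 25.8 CPM. For Hspa1b only glomeruli lay wholly below whole kidney. Neither gene was called by edgeR, the smallest FDR being 0.118 for Hspa1b in arterioles against the other 3 compartments (2.83 ± 1.23). That difference was called by DESeq2 (FDR 0.0448), without a filter (FDR 0.0466) and in the version 4 form (FDR 0.00446), which also called Hspa1b in arterioles against glomeruli (FDR 0.0356). Hspa1a was called lower in glomeruli than in peritubular capillaries by DESeq2 (FDR 0.0171) and the version 4 form (FDR 0.0248), and higher in peritubular capillaries than in the other 3 by the latter (FDR 0.0322).

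Within a microdissected library the pair was often unequal. Of the summed counts of the pair, Hspa1a made up 40.9% (95% exact binomial interval 37.2 to 44.6) in arteriole 93, 0.0912% (0.0110 to 0.329) in arteriole 96, 100% (98.6 to 100) in arteriole 98 and 99.4% (96.6 to 100) in arteriole 100. Peritubular capillary libraries gave 5.42%, 58.4%, 97.1% and 99.9%, and a share under 10% or over 90% was found in 9 of 16 microdissected libraries. In whole kidney the share was 37.2% to 49.9%, and no library passed these limits. The intervals cover counting error only. Between the annotated transcripts 47.1% of the 100-base windows of Hspa1a also occur in Hspa1b, but none of those in the last 500 bases do, where 3′ libraries read. Reads from further upstream remain uncertain between the pair. With the counts of both added, a choice made after seeing the data, the pair was called in no comparison, and the smallest FDR was 0.0743 (arterioles against the other 3, 2.18 ± 0.81).

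**Figure D3:**
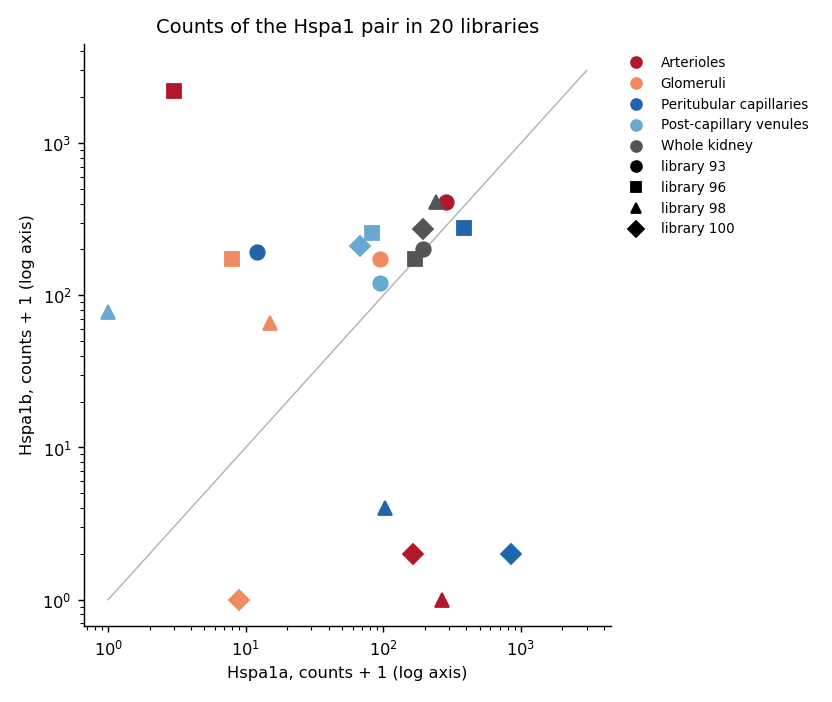
Counts of Hspa1b against Hspa1a in each of the 20 libraries, both as counts + 1 on log axes, with colour for the group, shape for the library number and a line of equal counts. The 4 whole kidney libraries sit together near the line, with a Hspa1a share of 37.2% to 49.9%, while arterioles 96, 98 and 100 lie along the edges.

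Taken by comparison, few of the 9 tested members passed, and the share of all genes that did so differed widely. In arterioles against whole kidney 2 were called (Jun and Hspb1, both higher), where 11.3% of 13813 genes were called. No member was called in glomeruli against whole kidney (3.06% of all genes). None was called in peritubular capillaries (0.0941% of all genes) or venules (0.224%) against whole kidney. At an unadjusted edgeR p under 0.05 there were 2 members in glomeruli, 1 in PTC and 0 in venules. Of all 13813 genes, 2077, 1719 and 1293 passed that limit. DESeq2 also called 0 members in each, beside 861, 284 and 175 of all genes.

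Against the other 3 compartments, arterioles had 3 members called (Jun, Ier2 and Hspb1, all higher), where 11.3% of 12179 genes were called. Peritubular capillaries had 2 (Jun and Hspb1, both lower), against 7.18% of all genes. Glomeruli (3.77% of all genes) and venules (0.509%) had none by edgeR. At an unadjusted edgeR p under 0.05 they also had none, beside 1864 and 1492 of all genes. DESeq2 called none as well, beside 856 and 482 of all genes. In pairs, 1 member was called in arterioles against glomeruli (2.18% of all genes) and 1 in arterioles against venules (4.37%), in both cases Hspb1. Jun and Hspb1 were called in arterioles against peritubular capillaries (11.2%) and in glomeruli against peritubular capillaries (4.47%). Neither glomeruli against venules (1.22%) nor peritubular capillaries against venules (0.386%) had a member called by edgeR. At an unadjusted edgeR p under 0.05 these pairs had 0 and 2 members, beside 1404 and 1370 of all genes. DESeq2 called 0 and 2 members (Jun and Hspb1), beside 630 and 591 of all genes. With so few members, these shares only set the scale and do not mark the set as different from other genes.

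**Figure D4:**
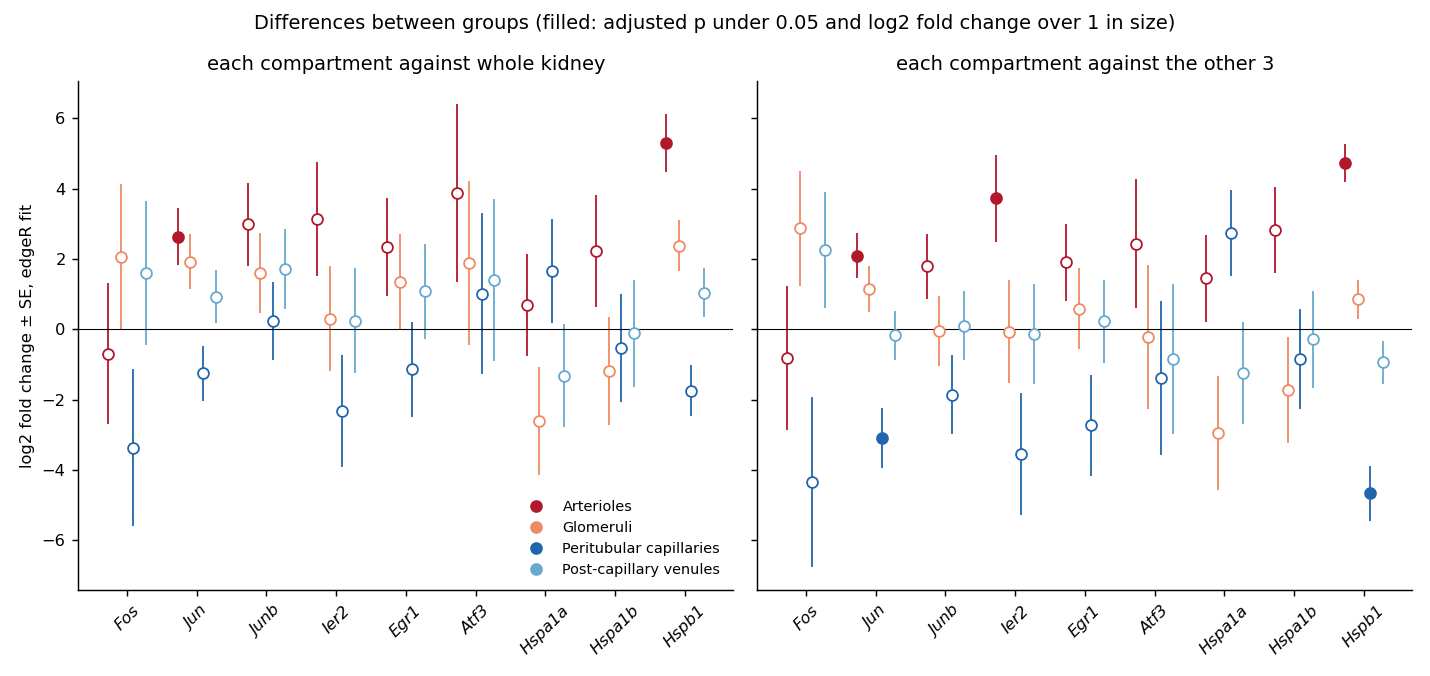
Log2 fold change with its SE for the 9 tested members in each compartment against whole kidney (left) and against the other 3 compartments (right), with colour for the compartment and filled points for called differences. Filled points are Hspb1 and Jun in arterioles in both panels, Ier2 in arterioles and Hspb1 and Jun in peritubular capillaries in the right panel, and error bars for Fos and Atf3 are the widest.

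The spread between the 4 libraries of a group was the other question. The SD of log2(CPM + 1) had a median over the 9 members of 2.84 in arterioles, where the median over all 13813 genes tested was 1.87. It was 1.26 against 1.07 in glomeruli, 1.59 against 1.49 in peritubular capillaries, 1.79 against 1.36 in venules and 0.384 against 0.242 in whole kidney. With a pseudocount of 5 the medians of members and of all genes were 0.710 and 0.972 in peritubular capillaries, where the order turned, and the order stayed in the other groups. Leaving out 1 library moved the members' median by over 1.5 times in glomeruli without 96 (0.743) and in peritubular capillaries without 100 (0.904). The members that exceeded the median gene numbered 7 of 9 in arterioles, venules and whole kidney, 6 in glomeruli and 5 in peritubular capillaries. Hspa1b in arterioles had an SD of 4.32, above 99.9% of all genes tested. In whole kidney Egr1 had an SD of 1.14 (above 99.7%), and Jun, Junb and Hspb1 had 0.553, 0.548 and 0.534, above 94.6%, 94.3% and 93.6%. Hspa1a was steadier there than most genes (0.107, above 11.05%), and glomerular Jun likewise (0.313, above 10.98%).

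A view over all groups came from the dispersion of the 20-library fit relative to the trend at the same mean level. Atf3 lay at 1.46 times the trend, Hspb1 at 1.44 times and Hspa1b at 1.41 times, above 98.4%, 98.1% and 97.6% of all genes tested. Jun lay at 0.720 times the trend, above only 4.35%. Fos, Junb, Ier2, Egr1 and Hspa1a lay between 0.893 and 1.04 times the trend, near the median gene at 0.965.

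**Figure D5:**
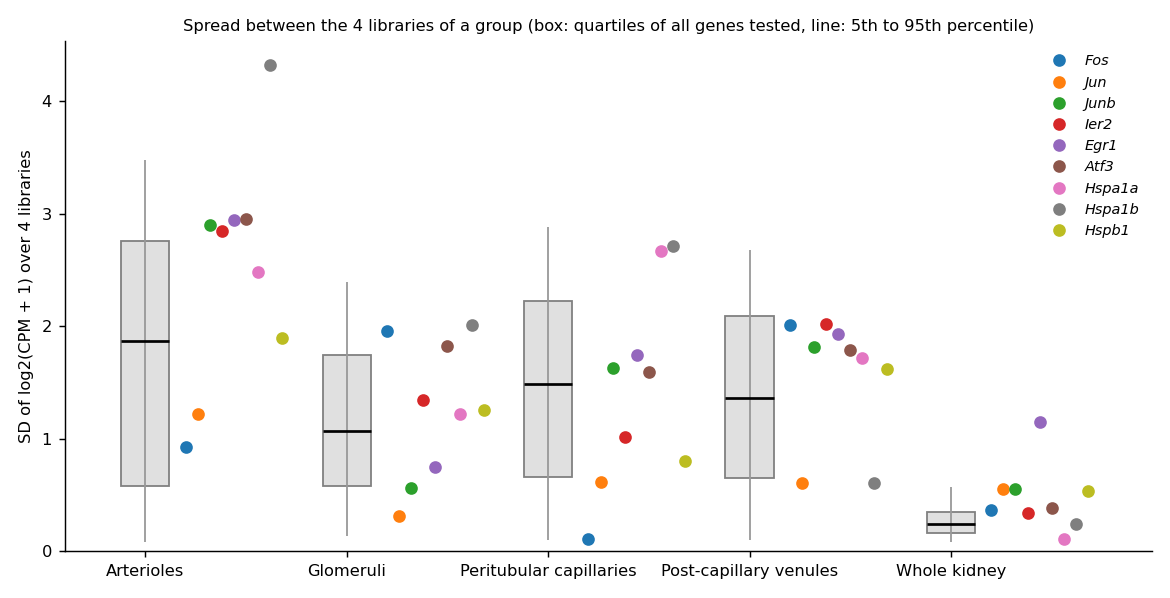
SD of log2(CPM + 1) over the 4 libraries of each group for the 9 tested members (points), beside all 13813 genes tested (box, quartiles with the median; line, 5th to 95th percentile). Whole kidney is the tightest group, with a median gene at 0.242, and Egr1 stands at 1.14 there, while Hspa1b in arterioles at 4.32 is the highest point.

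In whole kidney, the group with the smallest spread, library 100 was the highest of the 4 for all 7 of them: its Fos, Jun, Junb, Ier2, Egr1 and Atf3 stood at 1.98, 45.2, 19.3, 9.35, 27.4 and 1.98 CPM, and its Fosb at 0.472 CPM. The 7 summed to 41.1, 43.5, 58.8 and 106 CPM in the 4 libraries. Whole kidney 100 was the highest library for 23.8% of all genes tested and for 9 of 38 other immediate early genes. It was the highest for none of the 3 heat shock genes, whose sum was 70.3, 111, 82.2 and 97.9 CPM. In the microdissected groups no library was highest for all members. Arteriole 96 led in 5 of the 9 genes with counts (28.7% of all genes tested). Glomerular 96 led in 4 of 10 (26.5%) and venule 96 in 5 of 9 (25.4%). Capillaries 96 and 100 each led in 3 of 9 (22.7% and 27.7%). These counts are a description of 4 libraries a group.

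The wider pathways were read from lists of related genes, of which 14 AP-1 and CRE-binding partners, 47 symbols of serum- and stress-responsive immediate early genes, 17 upstream regulators, 30 heat shock and chaperone genes, 9 other small heat shock proteins and 10 genes of the integrated stress response were listed. Among 38 other immediate early genes tested, 5 were higher and 1 lower in arterioles than in whole kidney, where 11.3% of all genes were called, with a list median of 1.70 on the log2 scale against 0.22 for all genes. In glomeruli 2 were higher and 0 lower (3.06% of all genes called), and in peritubular capillaries and venules none was called. Klf2, an endothelial factor that responds to flow, had 372 ± 130 CPM in arterioles, 161 ± 48.0 CPM in glomeruli and 25.3 ± 4.01 CPM in whole kidney (log2 3.88 ± 0.67, FDR 0.000105, and 2.67 ± 0.64, FDR 0.0110). Nfkbia, the inhibitor of NF-kappaB, stood at 699 ± 376 and 367 ± 74.6 CPM against 102 ± 18.01 (2.78 ± 0.50, FDR 0.000216, and 1.85 ± 0.49, FDR 0.0241).

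Among compartments 34 of these genes were tested. Arterioles had 6 higher and 0 lower than the other 3 (list median 1.63, all genes 0.31), glomeruli 1 higher, peritubular capillaries 3 lower (list median -1.03, all genes 0.07) and venules none. The shares of all genes called were 11.3%, 3.77%, 7.18% and 0.509%. Nr4a2, an orphan nuclear receptor, averaged 108 ± 164 CPM in arterioles and 3.06 ± 7.20 CPM in the other 12 libraries (7.03 ± 1.33, FDR 0.000283). Sgk1, a kinase induced by serum and steroids, was the glomerular call, at 160 ± 24.6 against 24.6 ± 26.4 CPM (2.96 ± 0.83, FDR 0.0328). In peritubular capillaries Klf2 and Nfkbia were lower than in the other 3 by 4.20 and 1.85 on the log2 scale (FDR 0.000100 and 0.0111). In pairs, with the shares of all genes called as given for the members: 6 were higher in arterioles than in peritubular capillaries and 2 than in venules, 2 were higher in glomeruli than in peritubular capillaries, 1 (Klf2) was lower in peritubular capillaries than in venules, and the other pairs had 0.

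The AP-1 and CRE partners gave 1 call over all 14 comparisons, with 12 and 10 genes tested with and without whole kidney. It was Jdp2, a repressor that pairs with Jun, at 21.5 ± 7.93 CPM in glomeruli and 0.502 ± 0.309 CPM in the other 3 compartments (5.46 ± 1.44, FDR 0.0200), a comparison that called 3.77% of all genes. Of 14 upstream regulators only Hsf2, a heat shock factor, was called: it was lower in arterioles than in whole kidney, with 6 counts over 4 arteriole libraries against 18.2 ± 3.18 CPM.

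Of 29 other heat shock and chaperone genes tested, 1 was called against whole kidney, in arterioles, where 11.3% of all genes were called. Of the 28 tested among compartments, 1 was higher in arterioles than in the other 3 (11.3% of all genes called), and 2 were higher and 1 lower in peritubular capillaries (7.18%). That gene, Hspa12b, is a distant HSP70 relative of endothelium, and it stood at 116 ± 53.7 CPM in arterioles and 3.41 ± 1.66 in whole kidney (5.09 ± 1.48, FDR 0.0230). Among compartments it was higher in arterioles than in the other 3 (6.21 ± 1.09, FDR 9.51e-05) and lower in peritubular capillaries, where its mean was 0.0952 CPM (FDR 0.00909). The mitochondrial chaperonin gene Hspd1 was 1.64 ± 0.50 higher in peritubular capillaries than in the other 3 (317 ± 68.3 against 111 ± 73.6 CPM, FDR 0.0373), and Hspa9, another mitochondrial chaperone, was lower in glomeruli than in peritubular capillaries by 2.11 on the log2 scale (FDR 0.0196). Glomeruli and venules had no call against the other 3, and the list medians lay between -0.41 and 0.13 in these comparisons.

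Of the 6 small heat shock proteins other than Hspb1 that were tested, 2 were called in arterioles against the other 3 compartments, where 11.3% of all genes were called. Hspb7 stood at 42.0 ± 33.5 against 5.26 ± 9.25 CPM (4.31 ± 1.39, FDR 0.0371) and Hspb2 at 28.5 ± 52.9 against 0.924 ± 2.32 CPM (6.32 ± 1.68, FDR 0.0105). Both are known from striated and smooth muscle. Cryaa, the lens alpha crystallin, was at 0 in all 4 arteriole libraries and 2.14 ± 0.654 CPM in whole kidney, at least 3.34-fold lower against the limit of 3 counts per library. In the integrated stress response list 3 of 9 tested genes were called in arterioles against whole kidney (11.3% of all genes): Atf5 was higher (139 ± 84.3 against 8.88 ± 1.73 CPM, FDR 0.0271), as was Ddit4, an inhibitor of mTOR signalling (2.87, FDR 0.0305), and Gdf15 was at 0 in all 4 arteriole libraries against 9.93 ± 2.52 CPM in whole kidney, at least 15.5-fold lower. Ddit4 was also higher in arterioles than in the other 3 (179 ± 94.5 against 45.3 ± 33.0 CPM, FDR 0.0375). Neither list had any other call in the comparisons with whole kidney or with the other 3 compartments, and none in the pairs.

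Genes that deviated from their group means like Fos, Jun or Hspb1 were looked for among all genes tested. This is a description over 20 libraries that differ in depth and, for whole kidney, in preparation. Among microdissected libraries Fos exceeded 1 count only in glomerular 96 and 100, venule 100 and arteriole 98. Its likeness to other genes therefore rests mostly on those few libraries. The 5 nearest to Fos by Pearson r of log2(CPM + 1) were Pde7b (0.906), Taf7, Hnf1aos1, Pcsk4 and Dclre1c (0.793). For Jun they were Srrm1 (0.824), Rangap1, Pigk, Cdc42ep1 and Arhgef25 (0.791), and those named for Hspb1 are S100a8 (0.878), Apol9b, Usp38 and Pdk1. No member was among them. Jun had r = 0.696 with Hspa1b, 0.266 with Junb and -0.361 with its partner Fos.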

How the data were processed

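The samples were microdissected kidney vessels and whole kidney from mice, as 3′ mRNA libraries (QuantSeq FWD), 4 for each of 5 groups. The authors filtered and trimmed reads (bbduk), mapped them to GRCm38.p6 by STAR 2.7 and deposited raw counts per gene from htseq-count 0.13, without normalization. The submitters' processing notes also name GRCm39 and featureCounts without a role. No source used here gives the strand setting or says whether molecular identifiers were used. Columns were assigned to groups by the header lines and letter of the table, 148 columns of per-sample values were not used, and no 2 libraries held identical values. Total counts per library ranged from 4639090 to 12283098.

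The model was edgeR 4.0.16 under R 4.3.3, with TMM, the quasi-likelihood F test (glmQLFit, legacy form of version 3) and genes kept by filterByExpr on the groups. All 20 libraries were fitted for comparisons with whole kidney (13813 genes), and the 16 microdissected libraries for one compartment against the equal-weight log-scale mean of the other 3 and for the 6 pairs (12179 genes). FDR is the Benjamini-Hochberg value over all genes tested, and a call needs FDR under 0.05 together with a difference over 1 on the log2 scale. SE is the size of the log2 fold change over the square root of F. CPM refers to the TMM-scaled library total. The fits were tested on simulated data.

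All 10 members are named in every comparison, and of each related list the called genes with the 2 smallest p per comparison, though repeats of a gene are not retold for every pair. For likeness, predicted genes and pseudogenes were passed over, and 1 of the genes nearest to Hspb1 is not reported here. The members and lists were chosen with earlier results of these data known. Coordinates are those of GENCODE M21 (GRCm38), counted from 1, and promoters those of RefSeq. Alternatives were DESeq2 1.42.0, its size factors, other filters, other sets of libraries, the version 4 form of the test, a replicate block, leaving out each library, a pseudocount of 5 in place of 1 for the spread, and the sum of Hspa1a and Hspa1b, which was added after seeing the data.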

Additional observations from a re-analysis of the deposited data

Results flagged for a closer look

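Of 47 sets of 4 libraries with differing values (10 genes in 5 groups), 11 (23.4%) held a library whose gap to its nearest neighbour exceeded the critical share of the group's range in Dixon's test at the 95% level. Chance gives about 1 in 20 for normal values, but among all 13813 genes tested 23.9% of such sets on the CPM scale did so, and the members' share is near that background. Atf3 stood apart 4 times, at 62.9 CPM in arteriole 98, 8.51 CPM in capillary 98, 11.3 CPM in venule 98 and 1.98 CPM in whole kidney 100. Fos stood apart at 2.81 CPM in arteriole 98 and 15.3 CPM in venule 100. Jun in whole kidney 100 was at 45.2 CPM and Ier2 in capillary 100 at 4.69 CPM. Hspa1a stood apart at 9.32 CPM in glomerular 93 and, on the low side, at 0 CPM in venule 98. Hspb1 in arteriole 96 was at 5934 CPM. Sets from the same library share their source, so these are not 47 independent tests.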

How the results depend on the processing

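No difference of a member called in the fit reported above turned its direction in any setting. Atf3 in arterioles against whole kidney (3.88, called only in the version 4 form at 4.19) turned to -3.07 with the replicate block and -3.73 without arteriole 98, neither called. The members called in arterioles against whole kidney numbered 2, but 4 by DESeq2 and 5 in the version 4 form. They numbered 1 without a filter, with the study's adapted independent filtering or with a replicate block, and 1 to 3 leaving out 1 library. Over all genes the calls numbered 1558, and in these 5 settings 3539, 2705, 1171, 1744 and 1737. In glomeruli against whole kidney 0 became 1 without a filter, with independent filtering or with the block. It became 2 with only the 8 libraries compared or in the version 4 form. All genes called numbered 422, and 406, 636, 475, 2827 and 1119 in these settings. In peritubular capillaries against whole kidney 0 became 1 without a filter or with independent filtering (all genes 13, 36 and 88). Arterioles against the other 3 had 3, and 5 by DESeq2 or 1 with the block (1 to 3 leaving out 1 library). All genes there numbered 1373, 3165 and 875. Peritubular capillaries against the other 3 had 2, and 4 by DESeq2 (1 to 2 leaving out 1 library), with 874 and 1947 of all genes. Arterioles against glomeruli had 1, and 2 in the version 4 form (0 to 1 leaving out 1 library), with 265 and 844 of all genes. Arterioles against peritubular capillaries had 2, and 5 by DESeq2 or the version 4 form (2 to 3 leaving out 1 library). All genes there numbered 1362, 3129 and 2249. Arterioles against venules had 1, and 2 by DESeq2 (all genes 532 and 2208). Glomeruli against peritubular capillaries had 2, and 1 without a filter or leaving out any library (all genes 544, and 592 without a filter). Peritubular capillaries against venules had 0, 2 by DESeq2 and 1 without a filter (all genes 47, 591 and 99). The cause was not tested. The median spread of members in venules was 1.79, and 1.01 with a pseudocount of 5. Leaving out 1 library gave medians of 1.91 to 3.25 in arterioles, 0.743 to 1.53 in glomeruli, 0.904 to 1.82 in peritubular capillaries, 1.25 to 1.96 in venules and 0.269 to 0.446 in whole kidney.

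Size factors of DESeq2 in place of TMM left every one of these counts of called members within 1.5 times its value. The same size factors raised the median log2 difference of all genes in the 5 comparisons with arterioles first. It went from 0.27 to 0.55 against glomeruli and from 0.31 to 0.55 against the other 3. In the other 9 it fell (from 0.11 to -0.02 in glomeruli against the other 3). The replicate block used the column numbers, which no label ties to mice. Of 40 same-number pairs of libraries, 0 had a correlation of deviations over 0.1 (-0.0526 to 0.0714). In 20 of 40 the own number was the highest of the 4 numbers. The median r was 0.00833 for the same number and -0.00316 for other numbers. These small values do not settle whether a number marks a mouse. Under the block Ier2 in arterioles against the other 3 had an FDR of 0.179 and Jun 0.0953, and Jun in arterioles against whole kidney 0.0637, while no other call of a member was lost. A value of 0 allows up to 0.640 CPM (3 counts) in the library with the smallest TMM-scaled total.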
